A study of Mus musculus with 6 samples.

Results

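The immunity-related GTPases (IRG proteins) are a family of interferon-induced proteins, and 7 of their genes, Irgm1, Irgm2, Igtp, Iigp1, Tgtp1, Tgtp2 and Ifi47, were followed here by gene symbol among the 54532 genes of a deposited RNA sequencing table. All 7 were found and all 7 had enough reads to be tested. The libraries came from mouse bone-marrow-derived macrophages, phagocytes grown from marrow, and every library was from cells treated with monosodium urate (MSU), crystals of which trigger gout. There were 3 libraries labelled Tet2 knockout and treated with MSU, and 3 labelled wild-type and treated with MSU. Tet2 codes for a dioxygenase that acts on methylated cytosines of DNA. The labels give no allele, strain, age or sex and do not state whether replicates were separate animals or cultures, and p-values therefore reflect the spread of these libraries alone, possibly a technical one. The comparison concerns the genotype label within MSU-treated cells, and the effect of the crystals was not analysed here.

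IRG proteins guard mouse cells against parasites and bacteria that live in membrane-bound vacuoles. The effector type (Iigp1, also called Irga6, the Tgtp proteins, also called Irgb6, and Ifi47, also called Irgd) loads onto the vacuole membrane and disrupts it. The regulatory type (Irgm1, Irgm2 and Igtp, also called Irgm3) sits on the cell's own membranes and keeps the effectors inactive there; the types differ in the nucleotide-binding loop, where regulators carry a methionine in place of a lysine. Both types are induced by interferon-gamma, and many members also by type I interferon, through STAT factors that bind GAS elements and through STAT and IRF factors that bind interferon-stimulated response elements (ISRE). Sorting of the effectors between vacuoles and the cell's own membranes also needs the autophagy proteins that conjugate ATG8.

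Promoter stretches that could be compared between members are shown here before the values. Whether these letters have a part in the values was not tested. RefSeq promoters on build GRCm38.p6 were taken for 6 of the 7 members. Iigp1, which had the largest log2 change of the 7 (1.41), was left out and its promoter was not examined. The 6 promoters held 250 bases before the annotated gene start and 50 bases from it on. They were searched on both strands for an ISRE-type pattern, GAAA and again GAAA with any 2 bases between them, and a GAS-type pattern, TTCNNNGAA. Irgm1, Irgm2, Igtp, Tgtp1 and Tgtp2, 5 of the 6, held the ISRE-type pattern, which is in 3.44% of the 32851 promoter windows searched. Irgm2, Igtp, Tgtp1 and Tgtp2 also held the GAS-type pattern, which is in 8.30% of windows, and 0.454% of windows held both. The matches are printed below in capitals with 15 bases on each side, read 5′ to 3′ on the gene's own strand.
Irgm1 (chr11:48871420-48871465, minus strand): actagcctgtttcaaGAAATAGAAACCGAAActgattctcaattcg
Irgm2 (chr11:58214887-58214937, plus strand): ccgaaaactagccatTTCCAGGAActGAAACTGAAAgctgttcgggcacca
Igtp (chr11:58199496-58199546, plus strand): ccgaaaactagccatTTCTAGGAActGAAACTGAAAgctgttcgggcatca
Tgtp1 (chr11:48992299-48992349, minus strand): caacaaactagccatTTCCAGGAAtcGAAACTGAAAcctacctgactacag
Tgtp2 (chr11:49064258-49064308, minus strand): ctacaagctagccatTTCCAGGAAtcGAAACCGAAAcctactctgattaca
Gm12185 (chr11:48927233-48927283, minus strand): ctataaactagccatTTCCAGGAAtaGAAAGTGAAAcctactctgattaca

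In Irgm2, Igtp, Tgtp1 and Tgtp2 a GAS-type match lay upstream of an ISRE-type match with 2 bases between them, and so it did in Gm12185, a further IRG-family gene of the same chromosome. This joined pattern, written down only after these sequences had been seen, was in 5 of the 32851 windows, and those 5 windows belonged to these genes. The 51-base stretches of Irgm2 and Igtp differed at 2 positions and those of Tgtp1 and Tgtp2 at 12. The stretches of Tgtp2 and Gm12185 differed at 5 positions. Irgm1 had 2 overlapping ISRE-type matches and no GAS-type match in its window. The Ifi47 window, which lies at the most upstream of its annotated starts, held neither pattern. RefSeq starts can differ from the deposited coordinates of a gene. Irgm2 is deposited from position 58199618 on the plus strand, and Gm12185 up to 48992226 on the minus strand. The stretches printed for these genes lie well inside those bounds and not at the deposited starts. A match is a description of the letters and not a measured binding site, and the absence of one says only that these letters are not in the window.

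**Figure D1:**
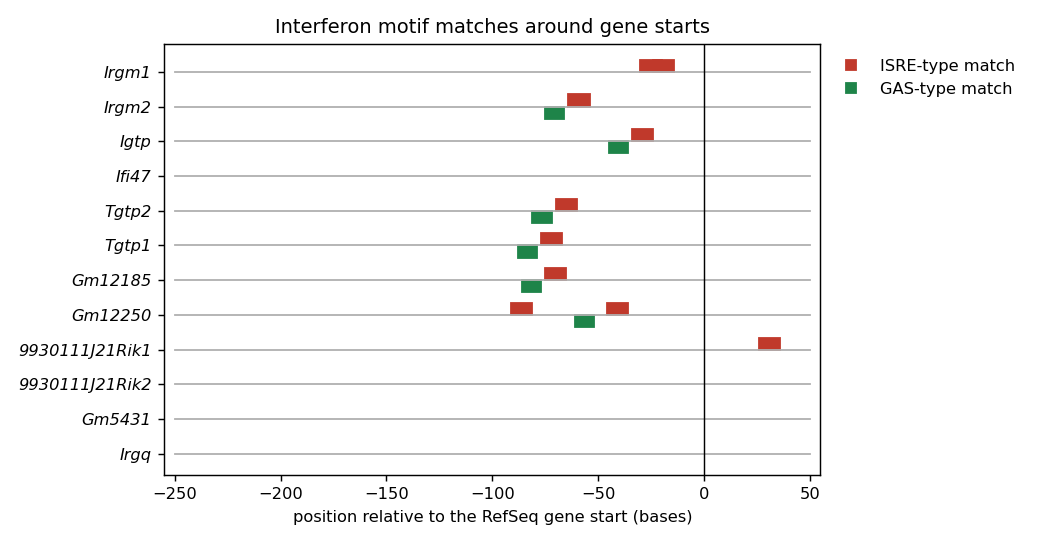
Positions of ISRE-type (red, above the line) and GAS-type (green, below the line) matches in the promoter windows of 6 IRG members and 6 other IRG-family genes; the x axis is the distance from the RefSeq start in bases. In Irgm2, Igtp, Tgtp2, Tgtp1 and Gm12185 a green match stands just upstream of a red one.

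The 7 members rose together in the libraries labelled Tet2 knockout. All 7 passed the edgeR quasi-likelihood test at an adjusted p of 0.05, 7 higher and 0 lower, against 21.6% of all 13175 tested genes called higher. With a biological coefficient of variation of 0.1 assumed in place of the fitted 2.63%, 6 members passed, all but Igtp, against 9.28% of tested genes called higher. In all 7 the 3 knockout-labelled libraries lay above the 3 wild-type-labelled ones without overlap, which held for 24.8% of tested genes. The median log2 change of the members was 0.51, and that of all tested genes was -0.0031. Iigp1 and Tgtp2 changed by at least 2-fold, which 1.72% of tested genes did in this direction while passing the test. Tet2, read as a check of the labels, was not lower but higher in knockout-labelled libraries. It stood there at 33.7 ± 0.80 CPM, against 29.3 ± 1.41 CPM in wild-type-labelled ones (SD, n = 3 each). The groups did not overlap, and the log2 change was 0.20 (edgeR adjusted p = 0.0159). The labels could not be checked in this way, so directions here are those of the labels only. CPM are counts scaled to a common library total after TMM scaling, which corrects for library size and makeup.

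Total counts ran from 13425170 to 14481843 in knockout-labelled libraries and from 11997104 to 13881435 in wild-type-labelled ones. Mitochondrially encoded genes took 0.349% to 0.366% of counts in knockout-labelled and 0.240% to 0.275% in wild-type-labelled libraries; the part of this difference in the IRG values was not tested. Wild-type replicate 2 had the lowest total and differed most from the others of its group, and without it all 7 members still passed. Of the 8 macrophage markers all were detected, with summed levels of 6665 to 6939 CPM in knockout-labelled and 6492 to 6906 CPM in wild-type-labelled libraries. In the libraries labelled knockout 4 of them were higher, Adgre1 (log2 change 0.78), Mertk (0.65), Csf1r (0.55) and Fcgr1 (0.20), and 3 were lower, Lyz2 (-0.47), Cd14 (-0.18) and Cd68 (-0.09), against 21.6% of all tested genes called higher and 19.2% called lower. Fibroblast markers were abundant in every library, 6520 to 6681 CPM summed over 8 genes in knockout-labelled and 6785 to 7261 CPM in wild-type-labelled libraries, with Col1a1 and Col1a2 the most abundant. Of these 8 genes 1 was higher and 4 were lower, against the same shares. Of the 8 T and NK cell markers Cd3g was at 0 in every library, and Cd3e, Cd8a and Ncr1 had at most 2 counts in any library. The summed level of that list was 11.6 to 12.6 CPM in knockout-labelled and 3.55 to 4.32 CPM in wild-type-labelled libraries, nearly all of it Cd4. Endothelial markers summed to 40.0 to 41.1 CPM in knockout-labelled and 33.4 to 37.7 CPM in wild-type-labelled libraries. Of the 3 tested, Kdr was higher (log2 change 0.47), against 21.6% of all tested genes called higher. Cdh5 (log2 change -0.15) and Pecam1 (0.70) did not pass. Dendritic cell markers summed to 5.26 to 6.54 CPM in knockout-labelled and 3.20 to 4.75 CPM in wild-type-labelled libraries without overlap. Of the 2 tested, Xcr1 was higher (log2 change 1.06, edgeR adjusted p = 0.000177), against the same 21.6%. Zbtb46 (log2 change 0.09) did not pass, and Siglech and Cd209a were at 0 in every library. B cell markers summed to 0.378 to 1.33 CPM in knockout-labelled and 0.0719 to 0.330 CPM in wild-type-labelled libraries, also without overlap, and none had enough reads to be tested. Neutrophil and mast cell lists each summed to under 3 CPM, in ranges that overlapped between the labels. Several cell types can express IRG genes; fewer cells of a type and less RNA per cell cannot be told apart in bulk RNA, and the part of cell makeup in the IRG differences was not tested.

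Among the regulators, Irgm1 (ENSMUSG00000046879, mm10 chromosome 11, positions 48861968 to 48871683, minus strand), which restrains the effectors and is also needed for resistance to mycobacteria in mice, had the most reads of the family. It stood at 342, 346 and 337 CPM in knockout-labelled libraries and at 259.7, 251 and 254 CPM in wild-type-labelled ones. The 3 values of each group lay within 10 CPM of one another and the groups were far apart. The log2 change was 0.42 (SE 0.03; edgeR adjusted p = 3.91e-25), a 1.34-fold difference.

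Irgm2 (ENSMUSG00000069874, positions 58199618 to 58222782 of chromosome 11, plus strand), a regulator found on Golgi membranes, had 151, 155 and 156 CPM in knockout-labelled libraries, against 113, 114 and 115 CPM in wild-type-labelled ones. Its log2 change of 0.43 (SE 0.04; edgeR adjusted p = 5.44e-19) was close in size to that of Irgm1. By log2 change Irgm2 ranked 1294 and Irgm1 1339 of 13175 tested genes, from the largest rise down.

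Igtp (ENSMUSG00000078853, positions 58199556 to 58207591 of chromosome 11, plus strand), the third regulator, resident in the endoplasmic reticulum, had 132, 126 and 114 CPM in knockout-labelled libraries and 102.5, 103.5 and 105 CPM in wild-type-labelled ones. The knockout-labelled libraries spread over more than the wild-type-labelled ones, and replicate 3 came nearest to them. The log2 change was 0.26 (SE 0.04; edgeR adjusted p = 1.07e-07), the smallest of the 7. It was 0.32 without knockout replicate 3 and 0.21 without knockout replicate 1, and with an assumed biological coefficient of variation of 0.1 Igtp no longer passed (edgeR adjusted p = 0.152). Igtp and Irgm2 overlap on the same strand: 162 exonic bases are annotated to both genes in GENCODE M21, 8.01% of Igtp and 4.39% of Irgm2. Reads there cannot be assigned to either with certainty.

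The effectors had larger log2 changes than the regulators, Ifi47 by the least; these differences between genes were not tested. Ifi47 (ENSMUSG00000078920, positions 49076587 to 49096974 of chromosome 11, plus strand) had 169.5, 167 and 169.5 CPM in knockout-labelled libraries, against 120, 124 and 112 CPM in wild-type-labelled ones. The knockout-labelled values were almost equal and all lay above the wild-type-labelled ones. Its log2 change was 0.51 (SE 0.04; edgeR adjusted p = 2.02e-23). Of its exonic bases 8.77% are also annotated to Olfr56 or Gm12188.

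Iigp1 (ENSMUSG00000054072, chromosome 18, plus strand), an effector that coats the vacuole of Toxoplasma, showed the largest change of the 7. It had 91.5, 98.2 and 98.5 CPM in knockout-labelled libraries and 39.7, 36.1 and 32.9 CPM in wild-type-labelled ones. The lowest knockout-labelled value was still far above the highest wild-type-labelled one. The log2 change was 1.41 (SE 0.05; edgeR adjusted p = 1.02e-44), a 2.65-fold difference and rank 91 of 13175 by log2 change.

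Tgtp1 and Tgtp2 encode near-identical copies of Irgb6, an effector first found in T cells. Of the 100-base stretches in Tgtp2 transcripts 76.8% also occur in Tgtp1 transcripts, and 70.3% of those in Tgtp1 occur in Tgtp2, so the split of reads between the copies is uncertain. No stretch of that length was shared with another gene in Irgm1 or Iigp1. Tgtp2 (ENSMUSG00000078921, positions 49057194 to 49064206 of chromosome 11, minus strand) had 72, 72.8 and 64.9 CPM in knockout-labelled libraries and 33.8, 32.8 and 35.4 CPM in wild-type-labelled ones. Its log2 change was 1.04 (SE 0.06; edgeR adjusted p = 7.98e-32).

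Tgtp1 (ENSMUSG00000078922, positions 48985327 to 48994172 of chromosome 11, minus strand) took few reads, with counts of 60, 52 and 64 in knockout-labelled libraries and 39, 36 and 26 in wild-type-labelled ones. These were 4.21, 3.69 and 4.84 CPM in knockout-labelled libraries, against 2.77, 2.97 and 1.87 CPM in wild-type-labelled ones. The groups did not overlap, but the gap between the nearest values was smaller than the range within either group. The log2 change was 0.75 (SE 0.21; edgeR adjusted p = 0.00239), with adjusted p-values from 0.00151 to 0.0438 over the alternatives tried.

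Counted as 1 gene, the Tgtp pair had 76.2, 76.5 and 69.8 CPM in knockout-labelled libraries, against 36.5, 35.7 and 37.3 CPM in wild-type-labelled ones. Knockout replicate 3 was the lowest of its group for the pair, and still well above every wild-type-labelled library. The summed log2 change was 1.02 (SE 0.06; edgeR adjusted p = 1.78e-32). Tgtp1 was assigned 4.83% to 6.94% of the pair's counts in knockout-labelled libraries and 5.02% to 8.31% in wild-type-labelled ones, ranges that overlap.

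**Figure D2:**
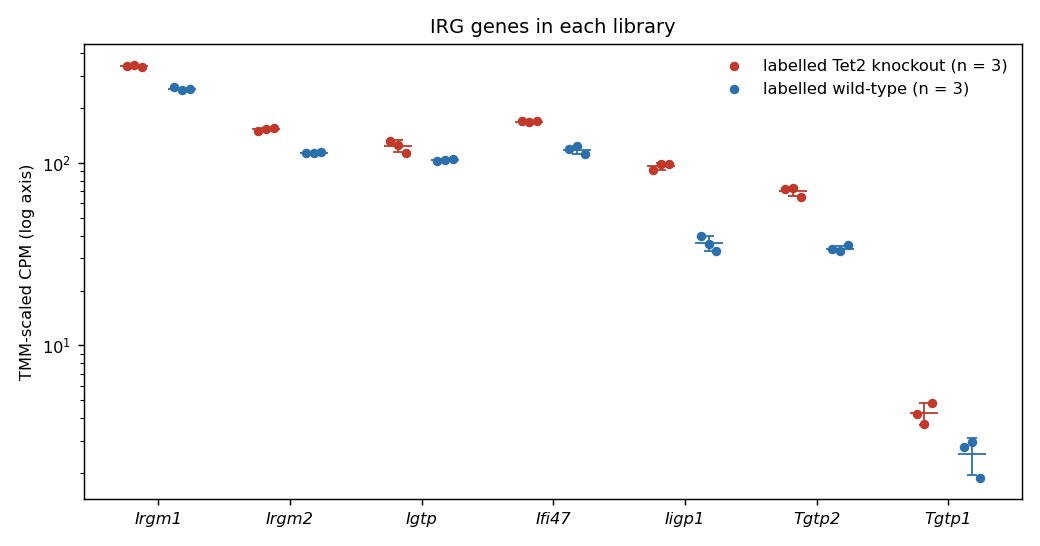
TMM-scaled CPM (log axis) of the 7 IRG genes; each point is 1 library, bars give the mean and SD of 3 libraries, red for those labelled Tet2 knockout and blue for those labelled wild-type. The red points lie above the blue ones for every gene, most widely for Iigp1 (91.5 to 98.5 CPM in knockout-labelled against 32.9 to 39.7 CPM in wild-type-labelled libraries).

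Levels of different genes were set side by side as CPM per kilobase of the gene length in the table. In the libraries labelled knockout Ifi47 was highest at 68.2 ± 0.52 CPM per kilobase, followed by Igtp at 61.3 ± 4.71 and Irgm1 at 58.8 ± 0.79 (SD, n = 3 each). Igtp and Irgm1 did not differ beyond their spread. Irgm2 at 41.6 ± 0.70, Iigp1 at 30.8 ± 1.27, Tgtp2 at 23.8 ± 1.48 and Tgtp1 at 1.33 ± 0.18 CPM per kilobase followed in these libraries. In the libraries labelled wild-type Igtp was highest at 51.3 ± 0.60 CPM per kilobase, then Ifi47 at 47.9 ± 2.39, Irgm1 at 43.9 ± 0.76 and Irgm2 at 30.8 ± 0.17. Iigp1 at 11.6 ± 1.10 and Tgtp2 at 11.6 ± 0.45 CPM per kilobase were level there, whereas in knockout-labelled libraries Iigp1 stood above Tgtp2. How reads common to the Tgtp copies were counted is not given, so the places of Tgtp1 and Tgtp2 in these orders are uncertain.

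The summed level of the 7 genes was 962, 968 and 944 CPM in knockout-labelled libraries, against 672, 663 and 656 CPM in wild-type-labelled ones, a ratio of means of 1.44. The makeup differed as well as the sum. Iigp1 took 10.03 ± 0.48% of the family's counts in knockout-labelled libraries and 5.45 ± 0.45% in wild-type-labelled ones, and Tgtp2 took 7.29 ± 0.36% in knockout-labelled and 5.12 ± 0.24% in wild-type-labelled libraries (SD, n = 3 each). Igtp took 12.9 ± 0.86% in knockout-labelled libraries and 15.6 ± 0.37% in wild-type-labelled ones, and Irgm1 took 35.7 ± 0.09% in knockout-labelled and 38.4 ± 0.50% in wild-type-labelled libraries. The share of Ifi47 was 17.6 ± 0.34% in knockout-labelled and 17.9 ± 0.77% in wild-type-labelled libraries, a difference smaller than the spread.

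The 4 effector genes summed to 337, 342 and 338 CPM in knockout-labelled libraries and to 196, 195 and 182 CPM in wild-type-labelled ones. The 3 regulator genes summed to 625, 626 and 606 CPM in knockout-labelled libraries, against 475.5, 468 and 473 CPM in wild-type-labelled ones. The effector sum over the regulator sum was 0.54, 0.55 and 0.56 in knockout-labelled libraries and 0.41, 0.42 and 0.38 in wild-type-labelled ones. The groups did not overlap in this ratio, and it describes the libraries without a test because the members were chosen with their values known. Iigp1 over Irgm1 was 0.28 ± 0.01 in knockout-labelled and 0.14 ± 0.01 in wild-type-labelled libraries (SD, n = 3 each), likewise a description.

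**Figure D3:**
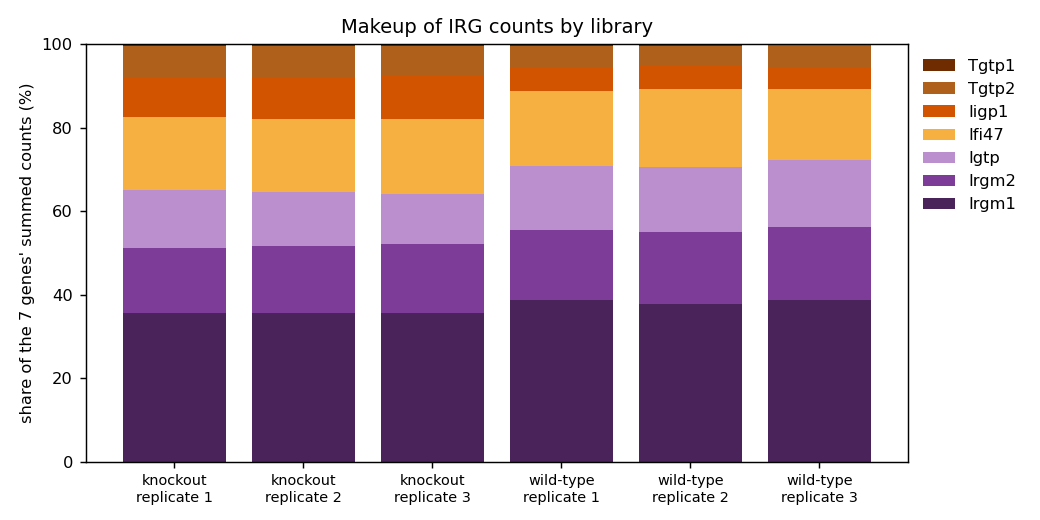
Share of the summed counts of the 7 IRG genes (%, stacked to 100) taken by each gene in each library, knockout-labelled libraries on the left. Iigp1 and Tgtp2 take more in the knockout-labelled libraries (10.03% and 7.29% on average, against 5.45% and 5.12% in the wild-type-labelled ones), while Irgm1 and Igtp take less.

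The wider IRG family was read from a list of 14 symbols, 12 of which were in the table and 9 of which could be tested. Of the 9, 8 rose in the libraries labelled knockout and none fell, against 21.6% of all tested genes called higher and 19.2% called lower, with a median log2 change of 0.80 for the list; only Irgq did not pass (log2 change 0.10; edgeR adjusted p = 0.139). Irgc1 had 1 count over all libraries, Gm12186 had none and Gm12187 had 2. Gm4951, a neighbour of Iigp1 on chromosome 18, had counts of 586, 573 and 535 in knockout-labelled libraries, against 176, 148 and 196 in wild-type-labelled ones. Its log2 change of 1.65 (SE 0.08; edgeR adjusted p = 2.97e-36) compares with 1.41 for Iigp1, a difference that was not tested. F830016B08Rik and Gm4841, also on chromosome 18, changed by 1.44 and 0.69 on the log2 scale.

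On chromosome 11, Gm12250, which RefSeq also names Irgb10, an effector directed at bacteria and at parasite vacuoles in mice, had 68.6 ± 1.02 CPM in knockout-labelled libraries and 39.2 ± 1.51 CPM in wild-type-labelled ones (SD, n = 3 each; log2 change 0.80, SE 0.05). The deposited table lists it as a processed pseudogene of 1274 bases, while RefSeq gives a protein-coding gene. Gm5431 changed by 0.83, Gm12185 by 1.29, 9930111J21Rik1 by 0.70 and 9930111J21Rik2 by 0.65 on the log2 scale. The 2 last-named are near copies of each other, with 69.4% of the 100-base stretches of 9930111J21Rik1 found in 9930111J21Rik2, and 20.6% of those of Gm5431 occur in other genes, so these values are uncertain. Gm12185 overlaps Tgtp1 in 223 exonic bases and had no more than 58 counts in any library. Promoter windows were taken for 6 other IRG-family genes, and those on chromosome 18 were left out. The genes left out include Gm4951 and F830016B08Rik, which had the largest log2 changes of the list (1.65 and 1.44). Of these 6, 3 held the ISRE-type pattern and 2 the GAS-type pattern.

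**Figure D4:**
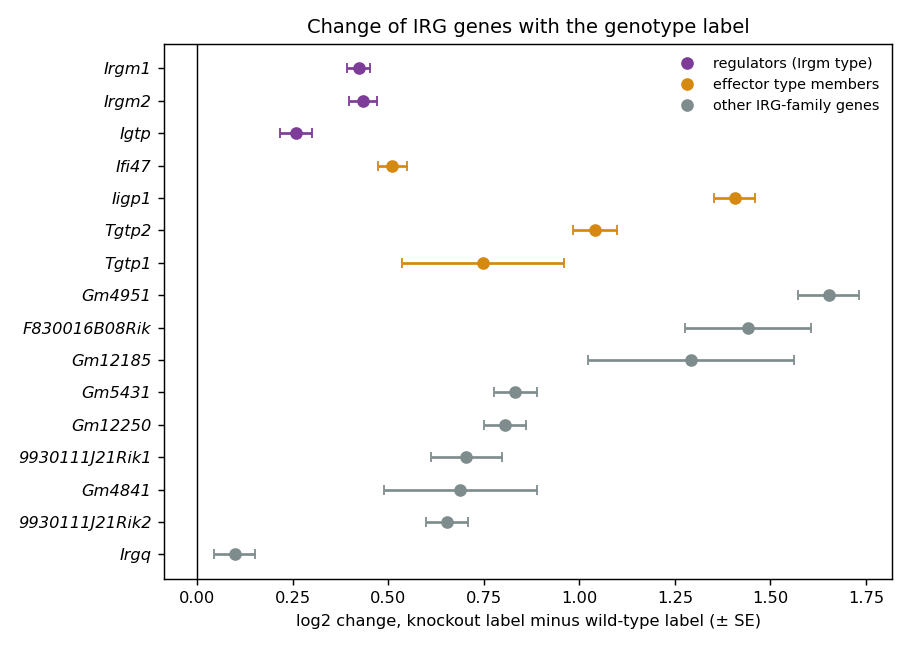
Log2 change (knockout label minus wild-type label; bars are 1 SE) of the 3 regulators (purple), the 4 effector type members (orange) and 9 other tested IRG-family genes (grey). Every point lies above 0, from 0.10 for Irgq to 1.65 for Gm4951; Irgq did not pass the test.

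The guanylate-binding proteins (GBPs), larger interferon-induced GTPases that work with the IRG proteins at vacuoles, rose in 7 of 8 tested genes with none lower, against 21.6% of all tested genes called higher. Their median log2 change was 0.34. Gbp8 did not pass (log2 change 0.26; edgeR adjusted p = 0.277). Gbp7 had 279 ± 2.86 CPM in knockout-labelled libraries and 194 ± 10.9 CPM in wild-type-labelled ones (log2 change 0.52), Gbp2 changed by 0.34, Gbp9 by 0.45 and Gbp4 by 1.22 on the log2 scale. Gbp2, Gbp3, Gbp5 and Gbp7 lie on chromosome 3, between positions 142493978 and 142638008. Tet2 lies on the same chromosome at positions 133463679 to 133545139, and no IRG gene listed here does. Gbp4, Gbp6 and Gbp9, which also passed as higher, lie on chromosome 5. Any part of position in these values was not tested. With an assumed biological coefficient of variation of 0.1, 4 GBP genes passed as higher, against 9.28% of tested genes.

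The interferon signalling list holds genes for receptors, kinases, transcription regulators and inhibitors, and not all of them act upstream of IRG genes. Of its 22 tested genes 14 were higher and 3 lower, while 5 did not pass. Of all tested genes 21.6% were called higher and 19.2% lower, and nothing is read from the count of 3 that fell. Its median log2 change was 0.18. The genes with the smallest p were the phosphatase gene Ptpn6 (log2 change 0.61), the kinase gene Tyk2 (0.61), the inhibitor gene Socs3 (0.52) and Nlrc5 (0.53), the activator of MHC class I genes. Those that fell were the type I interferon receptor subunit gene Ifnar2 (-0.14), Usp18 (-0.14), an inhibitor at that receptor, and Irf9 (-0.12), the DNA-binding part of the factor that type I interferon activates. Jak1 (log2 change 0.04), Jak2 (-0.05), Irf2 (0.10), Ptpn2 (-0.10) and Pias1 (0.01) did not pass.

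Irf1, which encodes a factor that binds ISRE-type elements and is named here after its values were seen, had 125 ± 2.71 CPM in knockout-labelled and 109 ± 1.75 CPM in wild-type-labelled libraries (SD, n = 3 each), a log2 change of 0.20. The interferon-gamma receptor genes Ifngr1 and Ifngr2, named in the same way, changed by 0.28 and 0.14. With the assumed coefficient of variation of 0.1 none of Irf1, Ifngr1 and Ifngr2 passed, 7 genes of the list passed as higher and 0 as lower, against 9.28% of tested genes called higher and 5.03% called lower. Transcripts of the interferons were too scarce to test. Ifng had counts of 2, 0 and 1 in knockout-labelled libraries and of 0, 0 and 1 in wild-type-labelled ones, and Ifnb1 had 1, 1 and 2 in knockout-labelled libraries, against 0 in every wild-type-labelled one.

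Among 12 tested genes for the ATG8 conjugation machinery and the ATG8 proteins, 7 fell, 0 rose and 5 did not pass, against 19.2% of all tested genes called lower, and the median log2 change was -0.15. Gabarap had 303 ± 2.42 CPM in knockout-labelled libraries and 349.9 ± 10.4 CPM in wild-type-labelled ones (SD, n = 3 each; log2 change -0.21; edgeR adjusted p = 8.23e-10). Atg12 fell by 0.30, Gabarapl1 by 0.28 and Map1lc3a by 0.51 on the log2 scale. Atg4b (log2 change -0.05), Atg7 (-0.08), Atg10 (0.24), Atg16l1 (0.03) and Gabarapl2 (0.03) did not pass. With the assumed coefficient of variation of 0.1 only Map1lc3a of this list passed, as lower, against 5.03% of tested genes called lower.

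The list of ubiquitin and galectin marks, proteins that tag or recognise damaged vacuoles, had 4 of 11 genes higher, 3 lower and 4 that did not pass, against 21.6% of all tested genes called higher and 19.2% called lower, and no direction is read from these counts. Its median log2 change was 0.02. Rnf213, a giant ubiquitin ligase, had 2212 ± 15.9 CPM in knockout-labelled libraries and 1292 ± 72.0 CPM in wild-type-labelled ones (SD, n = 3 each; log2 change 0.78), and Lgals9 rose by 0.30. Those that fell were Lgals3 (-0.47), which binds exposed glycans of broken vacuoles, Sqstm1 (-0.41), the autophagy receptor p62, and Optn (-0.37), another such receptor. Traf6 (log2 change 0.02), Rnf31 (0.02), Tax1bp1 (-0.03) and Nbr1 (0.06) did not pass. With the assumed coefficient of variation of 0.1, 2 passed as higher and 3 as lower, where 9.28% and 5.03% of tested genes did.

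**Figure D5:**
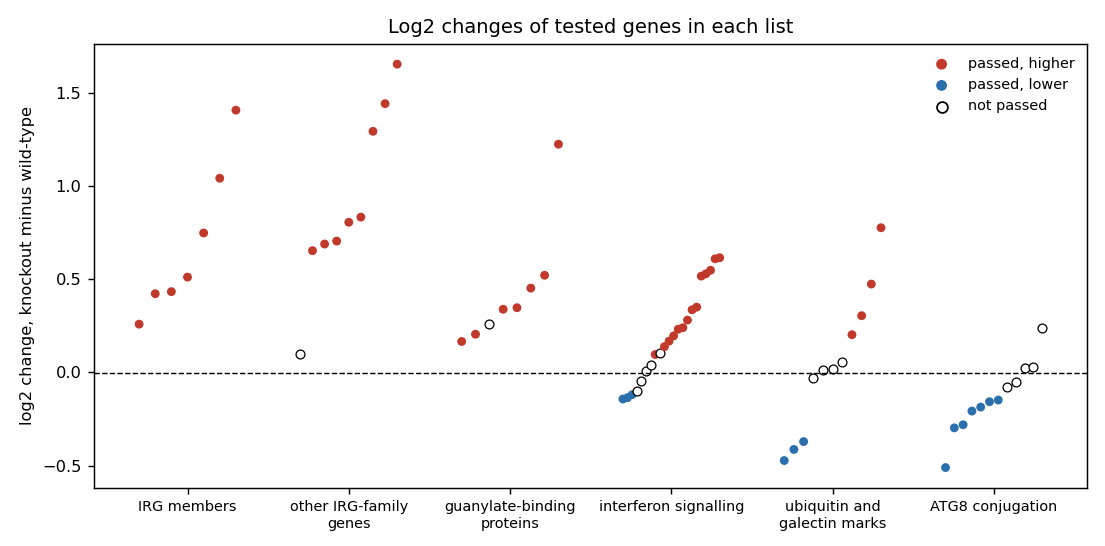
Log2 changes (knockout minus wild-type label) of all tested genes in 6 lists; each point is 1 gene, ordered by value within its list, red or blue where it passed an adjusted p of 0.05 as higher or lower and open where it did not, and the dashed line is the median of all tested genes (-0.0031). The 7 IRG members and 8 of 9 other IRG-family genes are red, whereas 7 of 12 ATG8 genes are blue.

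Genes that lie beside the chromosome 11 members were read from the same fit. Within 200 kb of the members 16 tested genes outside the family were found, with a median log2 change of -0.06. Of these 16, 2 rose, 3 fell and 11 did not pass, where 21.6% of all tested genes were called higher and 19.2% lower. For 16 genes these counts are close to those shares, and no direction is read from them. One that rose was Olfr56, which in the table spans positions 48978889 to 49135387 on the plus strand and so overlaps Ifi47 and both Tgtp genes. It had counts of 663, 704 and 622 in knockout-labelled libraries and of 317, 290 and 320 in wild-type-labelled ones (log2 change 1.05, SE 0.07; edgeR adjusted p = 5.87e-27). In GENCODE M21 it shares 111 exonic bases with Ifi47 on the same strand, where reads cannot be assigned to either gene with certainty, and no exonic base with Tgtp1 or Tgtp2. The other was the proteasome activator gene Psme2b (log2 change 0.19), which shares 41 exonic bases with 9930111J21Rik1. Of the other nearest genes, Mrpl22 fell by 0.25, and Trim7 (-0.13), Gemin5 (-0.06) and Gm12184 (0.19) did not pass.

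The profile over the 6 libraries, as log2 CPM centred on each gene's mean, was averaged over the 7 members and set against 11174 other protein-coding genes. The nearest by root mean square difference were Uba7 (0.02 on the log2 scale), which encodes the enzyme that activates ISG15 for conjugation, Arhgdib (0.03), the growth factor gene Igf1 (0.03), the potassium channel gene Kcnk13 (0.04) and the heat shock gene Hspa1b (0.04). Their log2 changes ran from 0.64 for Arhgdib to 0.74 for Kcnk13. Among the members, Ifi47 lay nearest to the family mean (0.09) and Iigp1 farthest from it (0.37). Such a profile carries the difference between the labels, so genes with a like change lie close to it whatever they do.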

How the data were processed

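The deposited table gives, for each gene, its raw read count in every one of 6 libraries, beside symbols, coordinates and lengths; the values are whole numbers that the authors did not normalise. Fastp, STAR, featureCounts and build mm10 are named per the submitters' processing notes, without versions. Per the labels' protocols, an RNeasy Plus kit was used for extraction and a NEBNext Ultra RNA kit for library construction. The strand setting and the treatment of reads that map to several genes are not given in the sources used here.

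Groups came from the titles. The function filterByExpr of edgeR 4.0.16 (R 4.3.3; minimum count 10) retained 13175 of 54532 genes. TMM scaling and the robust quasi-likelihood test followed, with no term besides genotype. All p-values were adjusted by Benjamini-Hochberg over all tested genes, with 0.05 as the threshold. Log2 changes are knockout minus wild-type with a prior count of 0.125. The SE is the log2 change over the square root of the F statistic. The common biological coefficient of variation was 2.63%. Within groups, pairs of libraries differed by 1.53 to 2.25 times counting noise, so none was a repeat deposit. The test was tried on simulated counts.

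Alternatives were upper-quartile or RLE scaling, limma 3.58.1 (voom), DESeq2 1.42.0, no low-count filter, at least 1 CPM in 3 libraries, the replicate number as a block, an assumed coefficient of variation of 0.1, protein-coding genes only, and each library left out. Windows of 100 bases were matched over GENCODE M21 transcripts, and promoters came from RefSeq on GRCm38.p6. Figures used Python 3.11.15 and matplotlib 3.10.9.

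The members and lists were chosen with earlier results of these data known. Named genes were all members, the wider family, the 4 with the smallest p in each other list, members that did not pass or moved against the list where 5 or fewer, the 6 nearest neighbours, and the 5 nearest profiles. Genes named outside this rule are marked as such or belong to the marker lists. Some genes of the lists are not reported here by name.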

Additional observations from a re-analysis of the deposited data

How the results depend on the processing

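All 7 members kept a positive log2 change under each of the 15 alternatives, and 6 of them passed under all 15. Igtp passed under 14 and not with an assumed biological coefficient of variation of 0.1, a spread larger than the one fitted (log2 change 0.26; edgeR adjusted p = 0.152). Under that assumption 6 members passed as higher, against a background of 9.28%, and 1222 of all tested genes were called higher and 663 lower. The lists then held 7 interferon signalling genes higher and 0 lower, 1 ATG8 gene lower, 4 GBP genes higher and 2 ubiquitin or galectin genes higher, while the wider IRG family kept its count of 8. No other count moved by over 1.5 times. Leaving out 1 library in turn gave a count of 7 members each time. The highest adjusted p of Tgtp1, 0.0438, came without wild-type replicate 3. The median log2 change of all genes moved by no more than 0.02 under another scaling. With the replicate number as a block 7 members passed and 2789 genes were called higher and 2470 lower. Deviations of same-numbered libraries had correlations of 0.0036, -0.0065 and -0.0206 over all tested genes, so no pairing by number was seen. Counting noise lowers such correlations, and whether same-numbered libraries were prepared together cannot be told from them. Tgtp1, with 26 to 64 counts per library, is the member whose depth limits it most.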
